A study of Mus musculus with 4 samples.

Results

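The transcripts described here are those of Asah2, which encodes neutral ceramidase, and of 9 other genes that break down sphingolipids or recycle the products. The genes, 10 of the 56748 listed in the deposited table, were chosen by name: Enpp7, Smpd1 and Smpd3 (sphingomyelinases), Asah2 and Asah1 (ceramidases), Sphk1 and Sphk2 (sphingosine kinases), Sgpl1 (sphingosine-1-phosphate lyase), and Cers5 and Cers6 (ceramide synthases). The list was drawn up with the results of the same comparison known, so the values of these genes are given as a description and without a test. All 10 passed the filter on low counts, which left 16094 genes in the comparison.

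The small intestine (SI) was taken at 1 day post 12 Gy total body irradiation (TBI) from WT (p53+/+) and p53-/- mice of 8 to 12 weeks of age, and RNA selected by poly-T beads was sequenced in 2 libraries per genotype. All of them were irradiated, so a difference between the genotypes is a difference within irradiated SI, and no level before irradiation was measured. The p53-/- mice lack p53 in every cell of the body, including blood and stromal cells. Whole SI holds many cell types, and fewer cells of a type and less RNA per cell cannot be told apart. The libraries carry the numbers 7 and 8 (WT) and 9 and 10 (p53-/-).

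Sphingolipids are made on a backbone of sphingosine or a related base, and ceramide is the hub of the pathway. Sphingomyelinases release ceramide from sphingomyelin, ceramidases cut ceramide into sphingosine and a fatty acid, sphingosine kinases turn sphingosine into sphingosine-1-phosphate (S1P), S1P lyase ends the path, and ceramide synthases put a fatty acid back. In the SI, alkaline sphingomyelinase (Enpp7) and neutral ceramidase (Asah2) sit on the brush border of the enterocyte, where they digest sphingomyelin from food in sequence. Ceramide and S1P are also studied as signals in the response of cells to radiation.

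Total counts were 15005479 to 17430246 in the WT libraries and 19811346 to 22173164 in the p53-/- libraries. Trp53 stood at 57.7 and 47.1 CPM (counts over the library size as scaled by TMM, in units of 1e+06) in WT and at 19.8 and 22.5 CPM in p53-/-, a log2 fold change of −1.31 (SE 0.188). It did not pass edgeR's quasi-likelihood test (adjusted p = 0.0602) but passed DESeq2's test (adjusted p = 4.3e-05). Counts per gene do not show which part of Trp53 was deleted. Library 10 stood apart. It held 588 counts of Xist, a transcript of the inactive X chromosome in female cells, against 2, 0 and 4 counts in libraries 7, 8 and 9, and its 18S rRNA gene Rn18s-rs5 took 4.59% of the counts, against 0.296% to 0.863% in the others. The labels give no sex per library, and its part in the comparison was not tested. Library 8 held more RNA of smooth muscle, at 4495 CPM summed over 6 markers against 481 to 995 CPM in the others. The log2 fold changes without each of these libraries are therefore given below. Over all genes, 48 were higher and 31 were lower in p53-/- than in WT (0.491% of those tested). Markers of the absorptive enterocyte were abundant in every library, with 20 genes summing to 19481 to 34473 CPM. The labels do not give the segment of the SI. Markers of the ileum summed to 2868 to 7368 CPM and markers of the proximal SI to 25.3 to 101 CPM.

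The sequences upstream of the genes for both brush border enzymes are shown because the transcripts of these successive enzymes differed most, and in opposite directions, among the 10 genes. Each is the 250 bases before the annotated start in RefSeq on GRCm38.p6, written 5′ to 3′ on the strand of the gene, with motif matches in capitals. The window of Asah2 is chr19:32103141-32103390 on the minus strand, and that of Enpp7 is chr11:118987931-118988180 on the plus strand.
Asah2: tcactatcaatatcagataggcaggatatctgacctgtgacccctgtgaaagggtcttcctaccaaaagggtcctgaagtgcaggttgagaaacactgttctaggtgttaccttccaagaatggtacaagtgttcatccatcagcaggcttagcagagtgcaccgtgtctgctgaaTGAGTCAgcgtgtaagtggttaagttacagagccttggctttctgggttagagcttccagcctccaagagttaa
Enpp7: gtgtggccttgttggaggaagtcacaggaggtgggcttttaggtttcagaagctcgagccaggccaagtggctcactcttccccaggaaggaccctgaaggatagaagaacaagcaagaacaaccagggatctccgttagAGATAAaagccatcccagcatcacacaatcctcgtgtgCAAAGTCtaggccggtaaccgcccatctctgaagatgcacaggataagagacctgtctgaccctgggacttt
For these windows, 5 motifs were searched on both strands. In the Asah2 window, the capitals mark an AP-1 motif (TGANTCA) at 74 to 68 bases before the start, a motif that 6.75% of all 32851 promoter windows hold. In the Enpp7 window, they mark a GATA motif (AGATAA) at 110 to 105 bases, held by 9.99% of windows, and an HNF4 core (CAAAGTC) at 72 to 66 bases, held by 3.84%. Neither window held the CDX motif (TTTATNG, in 9.81% of windows) or a pair of p53 cores (CATG on both sides of 6 other bases, in 0.49%). A match describes letters, not binding. The annotation lists 10 transcripts of Asah2, and counts per gene do not show which start was used.

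Asah2 (ENSMUSG00000024887) was the gene of the list that differed most between the genotypes. Its 234 and 187 counts in WT corresponded to 14.5 and 12.1 CPM, and its 1773 and 1601 counts in p53-/- to 77.7 and 79.6 CPM. The libraries of each genotype lay close together and the genotypes did not overlap. The mean rose from 13.3 ± 1.66 CPM (SD, n = 2) to 78.7 ± 1.36 CPM (SD, n = 2), 5.91-fold, with a fitted log2 fold change of 2.56 (SE 0.172). Each p53-/- library was above each WT library, by 2.42 to 2.71 on the log2 scale. Without library 10 the log2 fold change was 2.60, but edgeR then called 0 genes in the whole table, Asah2 included. Over all omissions of 1 library it was 2.44 to 2.71. By the size of the rise, Asah2 was at rank 543 of 16094 genes. Its exons overlap no other annotated gene.

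**Figure D1:**
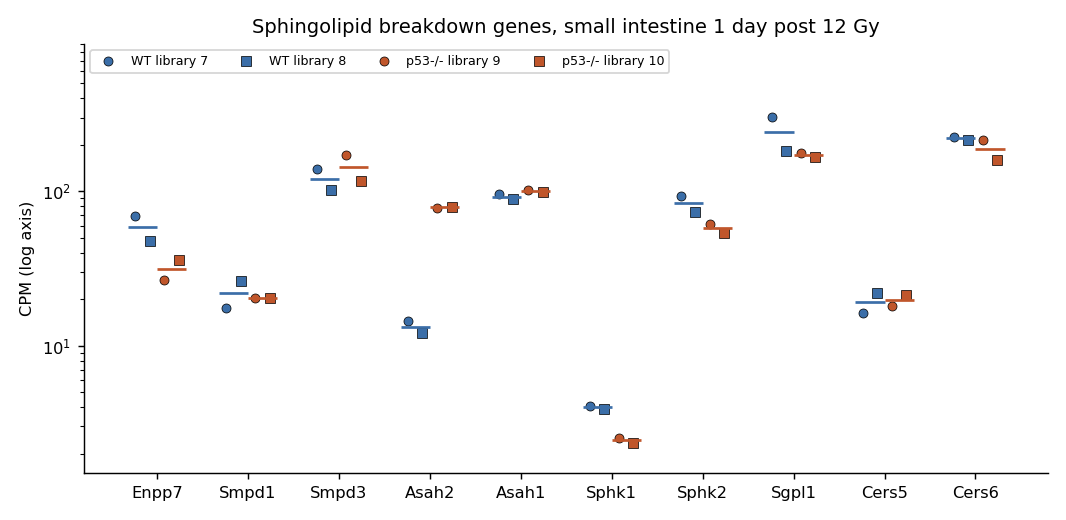
CPM (log axis) of the 10 genes in each library, with a point for each of the 2 WT and the 2 p53-/- libraries and a line for the mean of each genotype. Asah2 stood at 12.1 to 14.5 CPM in WT and 77.7 to 79.6 CPM in p53-/-, and the genotypes of the other 9 genes lay closer together.

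Enpp7 (ENSMUSG00000046697), whose product makes the ceramide that neutral ceramidase then cuts in the gut lumen, lay in the other direction. It stood at 69.7 and 47.4 CPM in WT and at 26.7 and 36.2 CPM in p53-/-. The genotypes did not overlap, but the libraries of each genotype were farther apart than for Asah2. The mean was 58.6 ± 15.7 CPM (SD, n = 2) in WT and 31.4 ± 6.70 CPM (SD, n = 2) in p53-/-, 1.86-fold higher in WT, with a log2 fold change of −0.90 (SE 0.259). Leaving out 1 library moved this value between −1.16 and −0.59, and without library 10 it was −1.08. The log2 ratio of Asah2 to Enpp7 in CPM was −2.27 and −1.97 in WT and 1.54 and 1.14 in p53-/-, a difference of 3.46. Per kb of all annotated exons, Enpp7 stayed above Asah2 in both genotypes, as given below. The exons of Asah2 cover 11638 bases, so a shorter transcript would raise its level per kb and may change this order in p53-/-.

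For Smpd1 and Smpd3, sphingomyelinases of other compartments, the genotypes overlapped. Smpd1, acid sphingomyelinase of the lysosome, stood at 17.6 and 26.2 CPM in WT and at 20.3 and 20.2 CPM in p53-/-, with the p53-/- values inside the WT range (log2 fold change −0.11, SE 0.259). Its sign turned without library 8, at 0.19. Smpd3, a neutral sphingomyelinase of the plasma membrane and Golgi, stood at 139 and 102 CPM in WT and at 171 and 116 CPM in p53-/- (log2 fold change 0.25, SE 0.267). These values overlapped, and the log2 fold change was 0.56 without library 10 and turned sign, at −0.06, without library 9. On the other strand, where Gm10629 and Prmt7 lie, 247 exonic bases of Smpd3 are shared.

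Asah1 is the acid ceramidase of the lysosome and carries out the same cut as Asah2 in another place. Its level was near constant, at 95.7 and 89.0 CPM in WT and 103 and 98.4 CPM in p53-/-. The genotypes did not overlap, but the log2 fold change was 0.12 (SE 0.153), smaller than its error. The log2 ratio of Asah2 to Asah1 was −2.72 and −2.87 in WT and −0.40 and −0.31 in p53-/-, a difference of 2.45 between these ceramidases.

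Both sphingosine kinases had lower means in p53-/- than in WT. Sphk1 stood at 4.08 and 3.89 CPM in WT and 2.54 and 2.34 CPM in p53-/-, the lowest level of the list, from 47 to 66 counts (log2 fold change −0.71, SE 0.408). Sphk2, the other sphingosine kinase, stood at 93.3 and 73.6 CPM in WT and 61.5 and 53.4 CPM in p53-/- (log2 fold change −0.54, SE 0.187). The genotypes did not overlap for either kinase, and their log2 fold changes kept the sign without each library, at −0.77 to −0.60 for Sphk1 and −0.70 to −0.35 for Sphk2. Of the exonic bases of Sphk2, 912 are shared with genes on the other strand, Dbp and Rpl18, and whether the counting used strand is not given in the sources used here. Rpl18, at 586, 438, 375 and 557 CPM in libraries 7 to 10, was far more abundant than Sphk2, so reads of Sphk2 are uncertain. Sphk1 shares 192 exonic bases with Gm29292 on the other strand.

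Sgpl1, the lyase that splits S1P for good, stood at 302 and 182 CPM in WT and 176 and 168 CPM in p53-/- (log2 fold change −0.49, SE 0.279). Its difference rested on library 7, as the log2 fold change without it was −0.07. Cers5 and Cers6, which make ceramide with long rather than very long fatty acids, differed little. Cers5 stood at 16.21 and 21.995 CPM in WT and 17.97 and 21.29 CPM in p53-/-, overlapping (log2 fold change 0.04, SE 0.253), with its sign turned without library 7 and without library 10. Cers6 stood at 225 and 215.1 CPM in WT and 215.1 and 159 CPM in p53-/- (log2 fold change −0.23, SE 0.214). Without library 10 the value for Cers6 was 0.02.

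Of the 10 genes, 1 (Asah2, not called without library 10) passed the test over all genes and was higher in p53-/-, where 0.298% of all genes tested were called higher and 0.193% lower. Because the list was drawn up from this comparison, nothing is read from that count. Under DESeq2, which called 8.54% of the genes it tested, Asah2 was higher and Enpp7 was lower. The genotypes did not overlap in 2 of 10 genes that were higher (Asah2 and Asah1) and in 5 of 10 that were lower (Enpp7, Sphk1, Sphk2, Sgpl1 and Cers6), beside 26.4% and 24.4% of all genes tested (50.7% in either direction). Without library 10 the log2 fold changes were −0.06 for Smpd1, 0.21 for Asah1, −0.60 for Sphk1, −0.38 for Sphk2, −0.40 for Sgpl1 and −0.04 for Cers5, beside those given above. Without library 8 they were 2.44 for Asah2, −1.16 for Enpp7, 0.04 for Smpd3, 0.07 for Asah1, −0.75 for Sphk1, −0.70 for Sphk2, −0.82 for Sgpl1, 0.27 for Cers5 and −0.27 for Cers6. The median log2 fold change of the 10 genes was −0.17, and that of all genes tested was −0.0084.

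**Figure D2:**
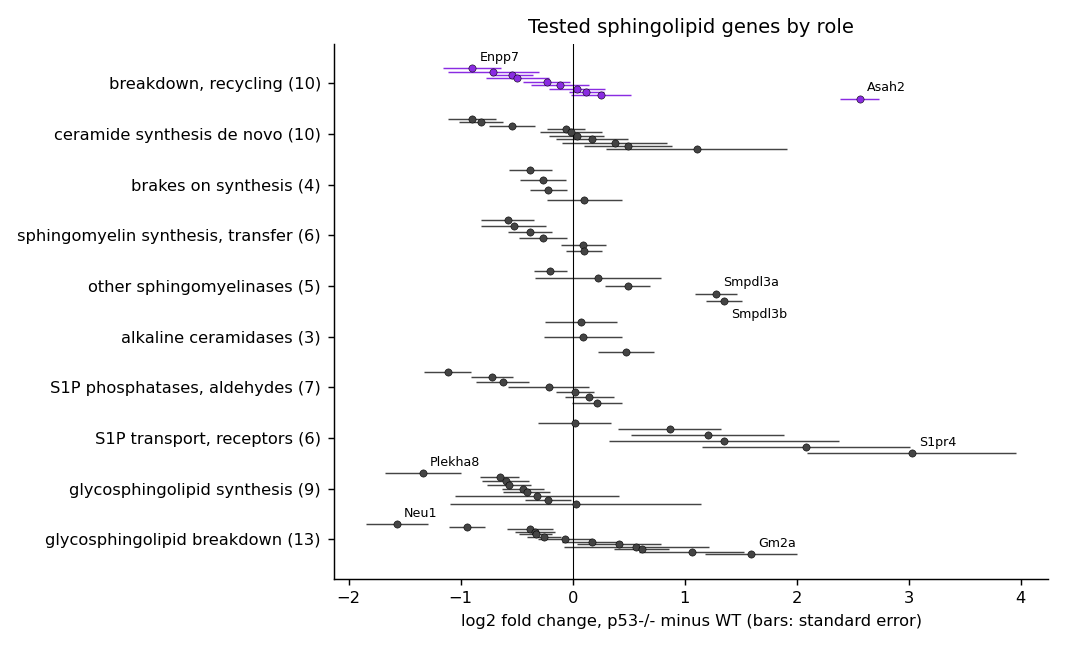
Log2 fold change (p53-/- over WT) of the 10 genes (purple, top) and of 63 other sphingolipid genes (grey), grouped by their role in the pathway, with bars for the standard error and the number of genes in parentheses. Asah2, at 2.56, lies above the alkaline ceramidases, and Neu1 and Plekha8 are lowest, at −1.57 and −1.34.

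Levels of different genes can be compared only per length of transcript, here as CPM per kb of all annotated exons. On this scale Asah2 was next to lowest in WT, at 1.14 ± 0.143 CPM per kb (SD, n = 2), above Sphk1 at 0.836 ± 0.0284. Smpd1 (6.57 ± 1.82) and Cers5 (5.39 ± 1.15) came next, and their libraries overlapped. Sgpl1 (39.4 ± 13.9), Enpp7 (30.0 ± 8.07), Asah1 (27.2 ± 1.40), Cers6 (24.8 ± 0.806), Smpd3 (23.0 ± 5.04) and Sphk2 (20.1 ± 3.35) formed the upper part of the order. There the WT libraries of neighbours overlapped, except those of Asah1 and Cers6. In p53-/- Asah2 reached 6.76 ± 0.117 CPM per kb, just above Smpd1 (6.07) and Cers5 (5.54) and below Enpp7 (16.1) and Asah1 (29.7). The exons of Asah2 cover 11638 bases over its 10 transcripts, so its level per kb is understated if a shorter transcript is the one made.

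**Figure D3:**
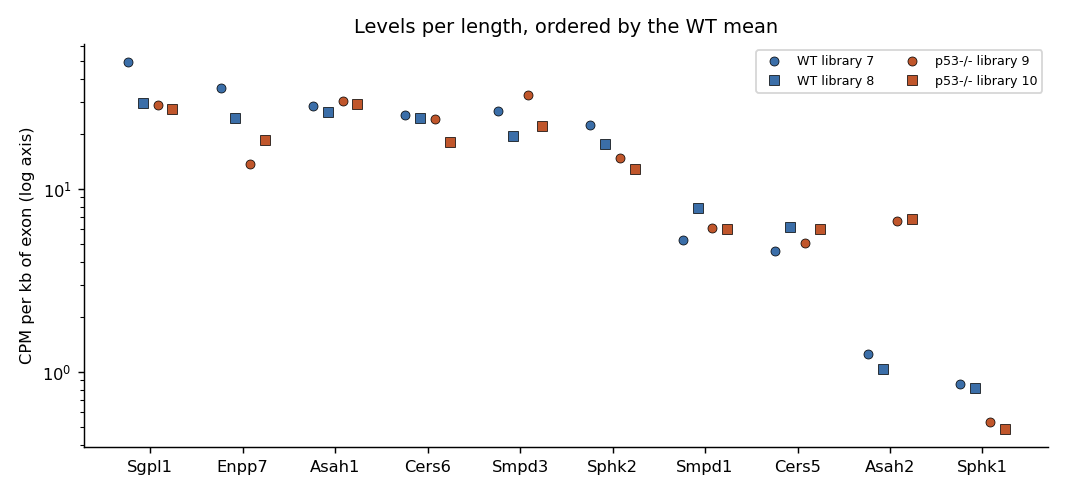
CPM per kb of exon (log axis) of the 10 genes in the order of their WT means, with a point for each of the 4 libraries. Asah2 lay at 1.14 CPM per kb in WT, above Sphk1 alone, and at 6.76 in p53-/-, just above Smpd1 and Cers5.

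Asah2 was then set beside other genes of the enterocyte. The 20 enterocyte markers summed to 34473 and 29766 CPM in WT and to 23104 and 19481 CPM in p53-/-, with 17 of 20 on the lower side, a median log2 fold change of −0.52 and 0 past the test (edgeR's quasi-likelihood test, with 1 higher and 7 lower at an unadjusted p under 0.05). The log2 ratio of Asah2 to this sum was −11.22 and −11.26 in WT and −8.22 and −7.93 in p53-/-, a difference of 3.16. Against 14 brush border enzymes, whose median log2 fold change was −0.51, the difference was 3.09. Both differences include the rise for which Asah2 was chosen and the lower sums of the lists. They are a description and no further support for that rise. The ratio of Enpp7 to the enterocyte markers overlapped between the genotypes, at −8.95 and −9.29 in WT and −9.76 and −9.07 in p53-/-. DESeq2 called 7 enterocyte markers and 5 brush border enzymes lower and 0 higher, beside 3.5% and 5.05% of the genes it tested.

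Sums of markers of other cells differed between the genotypes as well. Of 8 T cell markers, all were on the higher side in p53-/- (median log2 fold change 3.38), with 0 past edgeR's test and 8 at an unadjusted p under 0.05. DESeq2 called all 8 higher, beside 5.05% of the genes it tested. The T cell markers summed to 7.55 and 13.9 CPM in WT and 65.7 and 128 CPM in p53-/-. Markers of B cells and follicles summed to 1.11 and 1.82 CPM in WT, 22.6 CPM in library 9 and 465 CPM in library 10. The 7 stem cell markers summed to 457 and 380 CPM in WT and 914 and 871 CPM in p53-/-. Among them, Olfm4 stood at 47.6 and 16.0 CPM in WT and 473 and 525 CPM in p53-/-. Its log2 fold change was 3.97 (edgeR adjusted p = 0.0587, DESeq2 adjusted p = 1.64e-16), and it made up the difference of the sums. The median log2 fold change of the list was 0.16, and 3 of 7 were on the lower side, namely Ascl2 (−0.82), Rnf43 (−0.48) and Axin2 (−0.24). Markers of the proximal SI, where Slc40a1 made up most of the sum, were on the higher side in 4 of 5 genes (median log2 fold change 1.45), with sums of 37.9 and 25.3 CPM in WT and 101 and 87.9 CPM in p53-/-. All 4 markers of the ileum were on the lower side (median −0.81), with sums of 7368 and 4127 CPM in WT and 2868 and 3132 CPM in p53-/-. Fabp6, with the highest mean of them, stood at 5483 and 1836 CPM in WT and 1639 and 2072 CPM in p53-/-. The genotypes overlapped for Fabp6 and not for the other 3. Adipocyte markers summed to 37.6 and 63.3 CPM in WT and 4.12 and 6.07 CPM in p53-/-. Of the 5 tested, 2 were called lower by edgeR and 5 by DESeq2. The part of these cell types and of the sampled segment in the level of Asah2 was not tested.

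**Figure D4:**
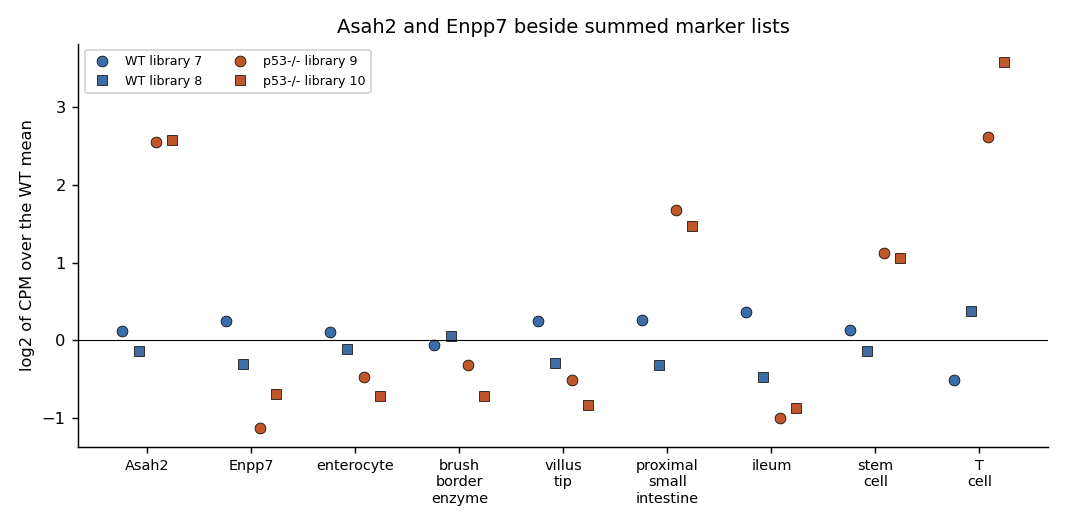
Log2 of CPM over the WT mean in each of the 4 libraries, for Asah2, Enpp7 and the summed CPM of 7 marker lists. Asah2 and the proximal SI, stem cell and T cell sums lay above the WT mean in both p53-/- libraries, and Enpp7 and the enterocyte, brush border, villus tip and ileum sums lay below it.

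By the distance between log2 CPM profiles over the 4 libraries, each centred on its own mean, the genes nearest to Asah2 among 12289 were 1810065E05Rik, Apol7e, Ulbp1, Nkg7 and Duoxa2. The nearest, 1810065E05Rik, stood at 16.5 and 13.9 CPM in WT and 86.6 and 91.5 CPM in p53-/-. Duoxa2, the maturation factor of the epithelial oxidase DUOX2, stood at 51.5 and 35.4 CPM in WT and 316 and 254 CPM in p53-/-. Both of these genes passed the test over all genes. The other 3 were low, with means of 0.665 CPM (Apol7e), 1.26 CPM (Ulbp1, a ligand of an activating receptor of natural killer cells) and 1.204 CPM (Nkg7, a granule protein of cytotoxic lymphocytes) in WT and of 4.02, 7.57 and 8.19 CPM in p53-/-. Only 1 of the 5 was also chosen by Pearson correlation, and the likeness rests on 4 libraries.

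**Figure D5:**
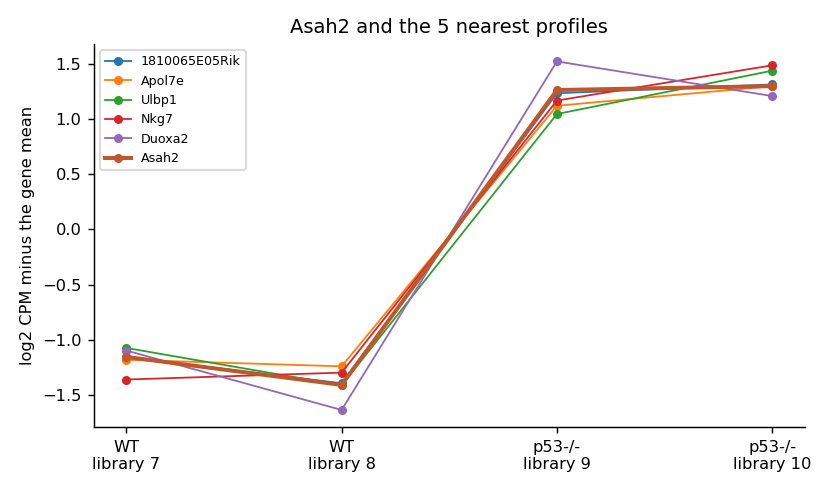
Log2 CPM, centred on the mean of each gene, of Asah2 (thick line) and its 5 nearest genes in libraries 7 to 10, joined by lines for reading only. All 6 profiles were low in both WT libraries and high in both p53-/- libraries.

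To place these genes in the rest of the pathway, 68 further sphingolipid genes were followed, of which 63 passed the filter on low counts. With edgeR, 0 were called higher and 0 lower, while at an unadjusted p under 0.05 there were 5 higher and 12 lower, beside 18% of all genes tested in either direction. DESeq2 called 4 higher and 8 lower, beside 5.05% and 3.5% of the genes it tested. The median log2 fold change of the 63 was −0.015, with 31 genes on the higher and 32 on the lower side. Over all 68, the genotypes did not overlap in 12 higher and 25 lower genes. These counts include Cers3 (higher) and Cers1 (lower), which were not tested. The shares over all genes tested were 26.4% and 24.4%. Of the 5 genes not tested, Sptlc3 and S1pr5 had 0 counts in every library, which allows up to 3 counts or 0.131 to 0.195 CPM per library, and Ugt8a, Cers1 and Cers3 had at most 11 counts. The alkaline ceramidases, which make the same cut at another pH, had log2 fold changes of 0.09 (Acer1), 0.08 (Acer2) and 0.48 (Acer3).

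The genes named here were among those with the smallest unadjusted p of the 63. Smpdl3b and Smpdl3a, relatives of acid sphingomyelinase, came nearest to the threshold. Smpdl3b stood at 28.7 and 28.0 CPM in WT and at 78.4 and 66.1 CPM in p53-/- (log2 fold change 1.35, edgeR adjusted p = 0.0510, DESeq2 adjusted p = 6.54e-06). Smpdl3a stood at 87.1 and 71.5 CPM in WT and at 205 and 180 CPM in p53-/- (log2 fold change 1.28, edgeR adjusted p = 0.0638, DESeq2 adjusted p = 5.39e-06). Neither passed edgeR's test, both passed DESeq2's, and the genotypes did not overlap. In the lysosome, Neu1, a sialidase, stood at 1054 and 721 CPM in WT and at 318 and 280 CPM in p53-/- (log2 fold change −1.57, edgeR adjusted p = 0.0912, DESeq2 adjusted p = 1.71e-07). Gm2a, an activator protein of ganglioside breakdown, lay in the other direction, at 10.7 and 22.1 CPM in WT and 38.0 and 60.6 CPM in p53-/-. Its log2 fold change was 1.59 (edgeR adjusted p = 0.153, DESeq2 adjusted p = 0.00529). Lysosomal genes of the list were thus on both sides.

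Among the 10 tested genes of ceramide synthesis, 5 were on the higher and 5 on the lower side, with a median log2 fold change of 0.011. Those with the smallest p were on the lower side. Cers2, the ceramide synthase for very long fatty acids, had a log2 fold change of −0.90 and Degs2, a desaturase and hydroxylase of dihydroceramide, one of −0.82 (edgeR adjusted p = 0.136 for both). Their DESeq2 adjusted p was 0.00548 (Cers2) and 0.00333 (Degs2). Of the 9 glycosphingolipid synthesis genes tested, 8 were on the lower side, with a median log2 fold change of −0.44 and 0 called by edgeR. They included Plekha8, a transfer protein of glucosylceramide (−1.34, edgeR adjusted p = 0.147), Ugcg, glucosylceramide synthase (−0.65, 0.158), and B4galt6 and B4galt5, lactosylceramide synthases (−0.60, 0.231, and −0.57, 0.232). The DESeq2 adjusted p was 0.00392 for Plekha8, 0.0161 for Ugcg, 0.111 for B4galt6 and 0.138 for B4galt5. The WT libraries of Plekha8 were far apart, at 138 and 71.5 CPM, and without library 7 its log2 fold change was −0.78. Downstream of S1P, Plpp1, a lipid phosphatase, and Aldh3a2, which clears the aldehyde that the lyase releases, had log2 fold changes of −1.12 (edgeR adjusted p = 0.101) and −0.72 (0.154). Their DESeq2 adjusted p was 0.00234 (Plpp1) and 0.0181 (Aldh3a2). The S1P phosphatases Sgpp1 and Sgpp2 had log2 fold changes of 0.15 and 0.22, and of the 7 genes of S1P phosphatases and aldehyde clearance 3 were on the higher and 4 on the lower side. On the other strand, exonic bases are shared with another gene by Cers2 (219), Degs2 (278), Plekha8 (208) and Plpp1 (452).

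All 6 tested genes of S1P transport and reception were on the higher side, with a median log2 fold change of 1.28 and 0 called by edgeR. Library 10 carried most of this, as the genes summed to 18.4 and 37.1 CPM in WT, 30.2 CPM in library 9, inside the WT range, and 89.5 CPM in library 10. S1pr3, for example, stood at 2.04 and 11.4 CPM in WT, 5.48 CPM in library 9 and 28.8 CPM in library 10. S1pr4, an S1P receptor of lymphocytes, stood at 0.495 and 0.779 CPM in WT, 1.62 CPM in library 9 and 8.85 CPM in library 10. Its log2 fold change was 3.03 (edgeR adjusted p = 0.195, DESeq2 adjusted p = 0.0213), and 1.39 without library 10. Its order over the libraries was that of the T cell and B cell sums given above. Without library 8 and without library 10, the log2 fold changes kept their sign for the 12 genes that follow, which were among those with the smallest p. They were 1.33 and 1.52 for Smpdl3b, 1.14 and 1.43 for Smpdl3a, −1.82 and −1.42 for Neu1, and 2.19 and 1.26 for Gm2a. For Cers2 they were −1.12 and −0.91, for Degs2 −0.95 and −0.84, for Plekha8 −1.74 and −1.13, and for Ugcg −0.61 and −0.66. For B4galt6 they were −0.79 and −0.45, for B4galt5 −0.76 and −0.49, for Plpp1 −1.09 and −1.16, and for Aldh3a2 −0.75 and −0.53.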

How the data were processed

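The deposited values are gene counts that were not normalized, and per the labels the tools behind them were fastp, HISAT2 2.0.5, featureCounts 1.5.0-p3 and DESeq2 1.20.0. The genome build and the strand of the counting are not given in the sources used here. Columns name a genotype and a library number, which the labels do not tie to a replicate.

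Genes were filtered with filterByExpr, scaled by TMM and tested between genotypes, two-sided, with edgeR 4.0.16's quasi-likelihood test in R 4.3.3 from the deposited counts (Benjamini-Hochberg over 16094 genes, threshold 0.05). DESeq2 1.42.0 was an alternative. CPM is the count divided by the scaled library size in units of 1e+06, and log2 CPM used a prior count of 2. Lengths and overlaps came from GENCODE M21, which holds 91.8% of the identifiers. Libraries 7 and 8 differed beyond counting noise (chi-square per degree of freedom 48.0), as did 9 and 10 (69.5). The labels name no separate animals for them, and p-values measure the spread between these libraries.

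The 10 genes and all lists were chosen with earlier results of these data known. Of the 68 sphingolipid genes, those past the threshold and then those with the smallest unadjusted p were named, to a total of 14, of which 1 is not reported here. Alternatives were library sizes alone, RLE and upper-quartile factors, DESeq2, no filter, at least 10 counts in every library, a threshold of 0.01 and each library left out. Pairs of single libraries and the counts without the 18S rRNA row were added after seeing the data. On simulated data with 200 of 16094 genes changed by 2 on the log2 scale, edgeR recovered 151 with 16 false calls and DESeq2 186 with 74.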

Additional observations from a re-analysis of the deposited data

How the results depend on the processing

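The log2 fold change of Asah2 was positive under all alternatives run. It lay between 2.44 and 2.71 with 1 library left out and between 2.424 and 2.714 over those omissions and the single-library pairs 9 against 7 and 10 against 8. Without library 10 it was 2.60, where edgeR called 0 genes in all, with 1201 at an unadjusted p under 0.05. The signs of Smpd1 (0.19 without library 8), Smpd3 (−0.06 without library 9), Cers5 (−0.16 without library 7 and −0.04 without library 10) and Cers6 (0.02 without library 10) turned.

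Counts of genes called over the whole table, higher and lower, were 26 and 20 with library sizes alone, 29 and 20 with upper-quartile factors, 813 and 563 with DESeq2, 1433 and 761 without a filter, 24 and 18 with at least 10 counts in every library, and 4 and 2 at an adjusted p under 0.01. With 1 library left out they were 0 to 680 and 0 to 344. Where 1 library of a genotype remains, it is assumed to vary like the other genotype. Of the 10 genes, 0 to 1 were then called higher and 0 to 1 lower, and 1 (Enpp7) was called lower with DESeq2 and 1 without a filter. Calls among the 68 sphingolipid genes were counted over those that each fit tested. DESeq2 called 4 higher and 8 lower, and the fit without a filter 7 and 7. For the 63 genes of the main fit, the median log2 fold change was 0.033 with library sizes alone and 0.041 with upper-quartile factors. It was 0.034 without a filter, 0.036 without the 18S rRNA row and −0.1027 to −0.062 with 1 library left out. The median of all genes tested was 0.15 without a filter. With 1 library left out, marker medians were −0.71 to −0.41 (enterocyte), −0.67 to −0.30 (brush border), 1.26 to 1.98 (proximal SI) and −0.98 to −0.57 (ileum). Of the 5 genes nearest to Asah2, Pearson correlation shared 1. The cause of these changes was not tested.

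No paired analysis was possible because the columns carry library numbers and not the replicate numbers of the labels. With 2 libraries per genotype, only differences well beyond the spread of these libraries pass the test, and counting intervals or limits cover counting error only.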
